A study of Nematostella vectensis with 15 samples.

Results

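In the deposited *Nematostella* transcriptomes, 91 of 27527 gene models met a rule for a rise at both steps of a temperature series. The steps were from 15 to 20 °C and from 20 to 25 °C. These 91 genes were selected on their measured levels in the same libraries. Levels were expressed as CPM, a gene's count per 1000000 counts of its library, and compared as log2 of CPM + 1. A gene was kept if its mean was at least 5 and under 1000 CPM, if its spread between libraries of one temperature was under 0.6, and if its mean rose by at least 0.4 at each of the 2 steps. The spread was the square root of the mean within-temperature variance. Of all gene models, 12280 met the limits on level and spread, and these are the background below. Steps above 0 of any size, at both temperatures, were measured in 4144 of these 12280 genes (33.7%). The same rule turned downward gave 127 genes with lower means at both steps.

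The libraries came from adult female polyps, the F1 offspring of a CH2XCH6 cross, and their tissue is labelled as the mesenteric portion of the body. There were 15 libraries, 5 from each of 15, 20, and 25 °C, and all polyps shared a salinity of 16‰. RNA was polyadenylated RNA prepared with a stranded kit. The series describes the polyps as acclimated to their temperature, and the study's methods add that laboratory polyps were kept in plastic boxes without light or substrate. The labels name no treatment other than temperature that distinguished the groups. Whether the polyps at a temperature had a box or a sampling day in common is not labelled, so a box or day effect cannot be told apart from temperature, and the p-values measure only the spread between these samples.

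*Nematostella* is a burrowing estuarine sea anemone, and its body temperature follows that of the water. In such animals, most biochemical reactions run faster as the water warms, and transcript levels can shift with temperature both in the short term and after acclimation. The mesenteries are folds of the gut wall that carry the gonads, digestive gland cells, and retractor muscle. In such mixed tissue, fewer cells of a type and less RNA per cell cannot be told apart. None of the gene model IDs in the files matched the RefSeq gene table used here (0 of 27527). The genes are therefore described by ID, structure, position, and level, and neither gene functions nor markers of the labelled tissue or of other cell types were examined.

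Total counts ran from 3526175 to 22160961 per library, and the medians by rising temperature were 7727786, 14234219, and 11095025. The lowest total was that of replicate 3 at 15 °C.

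The lower step, from 15 to 20 °C, ranged from 0.40 to 2.69 on the log2 scale over the 91 genes, with a median of 0.59. The upper step, from 20 to 25 °C, ranged from 0.40 to 1.22, with a median of 0.53. Over the 12280 background genes, the medians were 0.08 and 0.01. The rise from 15 to 25 °C had a median of 1.14 (0.82 to 3.27), and the ratio of mean CPM at 25 to that at 15 °C had a median of 2.30 (1.77 to 20.8). A rise of at least 1 log2 unit was measured in 70 genes and of at least 2 in 6 genes. The lower bounds of these ranges were set by the selection.

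**Figure D1:**
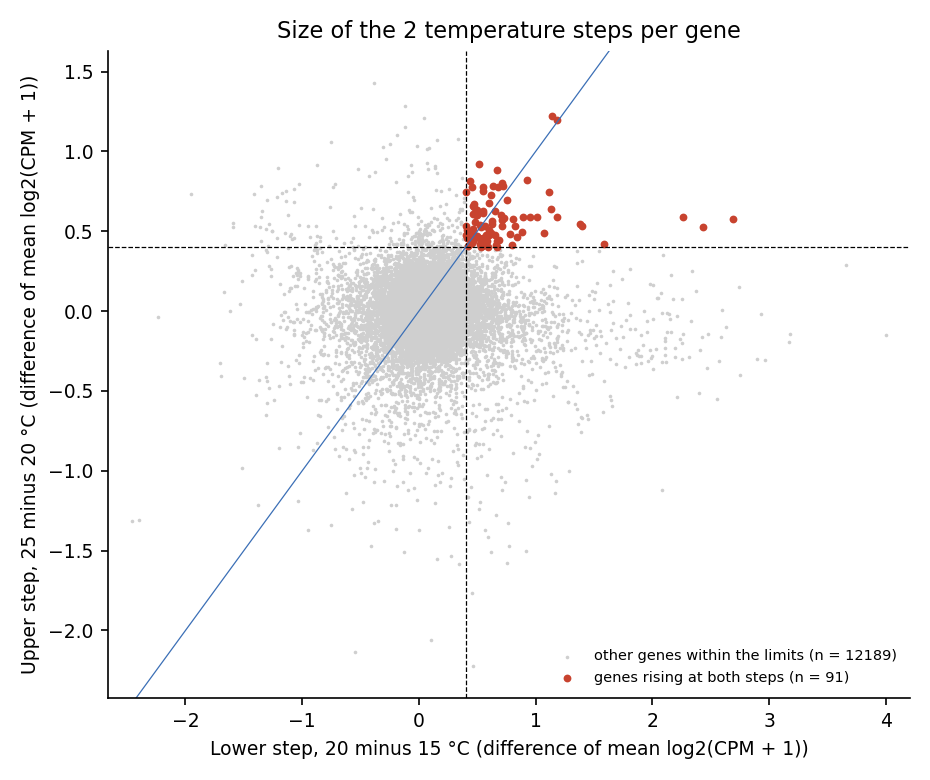
Size of the lower step (horizontal axis, 20 minus 15 °C) and of the upper step (vertical axis, 25 minus 20 °C) for each gene, in log2 of CPM + 1, as differences of means over 5 libraries. Red points are the 91 rising genes, grey points are the other genes within the limits on level and spread, dashed lines mark the limit of 0.4, and the blue line marks equal steps. Most red points lie close to the corner of the limits, and a few extend to the right, with lower steps up to 2.69.

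The share of the rise reached by 20 °C had a median of 52.4%, with a range of 34.7 to 82.4%, and the steps were within 0.1 of each other in 32 genes. On library totals, the lower step was the larger in 56 genes and the upper step in 35, but this order depended on the scaling. With TMM the counts were 46 and 45, and with DESeq2 size factors 44 and 47, and the median lower step (0.51 in both) fell below the median upper step (0.52 and 0.53). Likewise, the lower step was at least 1.5 times the upper in 21 genes and the reverse held in 4 on library totals, against 15 and 11 with TMM and 14 and 12 with DESeq2 size factors. A lower step of at least 1 was measured in 13 genes, or 11 under either other scaling, and an upper step of at least 1 in 2 genes under all 3 scalings. Both steps were at least 0.5 in 40 genes and at least 0.6 in 15.

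The within-temperature spread had a median of 0.27 (0.10 to 0.56). Levels ran from 5.01 to 989 CPM, with a median of 21.2, and 23 genes were under 10 CPM while 16 were at 100 CPM or more. Per kilobase of exon, the mean levels ran from 1.23 to 947 RPKM. In 14 genes the smallest count in any library was under 10, and 1 gene had a count of 0 in 1 library, NEMVEDRAFT_v1g108241 in replicate 3 at 15 °C. A count of 0 there allows up to 3 counts, or 0.851 CPM, for counting error only.

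All 20 °C libraries lay above all 15 °C libraries in 39 of the 91 genes, against 10.5% of the background. All 25 °C libraries lay above all 20 °C libraries in 43, against 2.52%. The groups were fully ordered at both steps in 26 genes (background 0.489%), in 13 at the lower step only, in 17 at the upper step only, and in 35 they overlapped at both. The 25 °C libraries were all above the 15 °C libraries in 83 genes (background 16.3%). In edgeR's quasi-likelihood test over 17818 genes, with Benjamini-Hochberg adjustment, 54 of the 91 were called higher at 20 than at 15 °C (9.66% of all genes tested), 46 higher at 25 than at 20 °C (1.14%), and 90 higher at 25 than at 15 °C (15.0%). The calls at the 2 steps were not all in the same genes, and fewer than 46 genes were called at both. For example, NEMVEDRAFT_v1g160634 was called at the upper step only (adjusted p 0.111 at the lower and 0.0293 at the upper step). TU5611 was called in no contrast. Without replicate 5 at 20 °C, the call at the upper step was made in 29 of the 91 (0.669% of all genes). These counts use the contrasts on which the genes were selected, so they describe the size of the steps against the spread and carry no further weight.

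The summed level of the 91 genes was also read in each library. Its rise with temperature follows from the selection on these same libraries, and genes of high CPM weigh most in it. At 15 °C, replicates 1 to 5 summed to 4286, 4389, 4105, 5454, and 4602 CPM. At 20 °C, the sums were 6256, 6955, 7512, 7399, and 6305 CPM. At 25 °C, they were 10453, 10896, 9757, 11315, and 10643 CPM. The means were 4567 ± 527, 6885 ± 590, and 10613 ± 577 CPM (SD, n = 5 each), and no library of one temperature overlapped another temperature. Replicate 4 at 15 °C was the highest of its group. Measured as the median over the genes, relative to each gene's own mean, the 15 °C libraries lay between -0.78 and -0.50, the 20 °C libraries between -0.04 and 0.08, and the 25 °C libraries between 0.52 and 0.64.

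**Figure D2:**
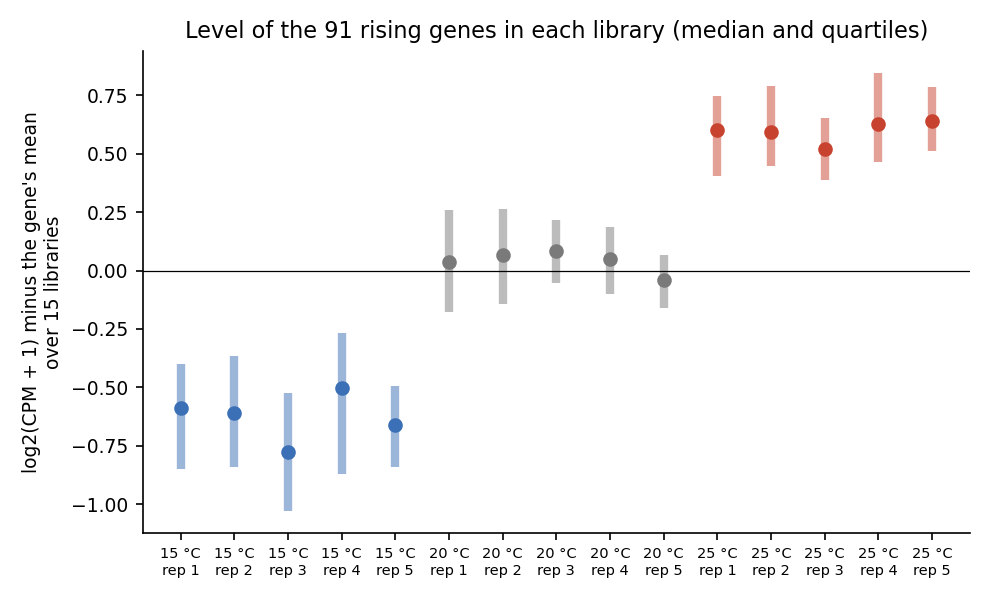
Level of the 91 rising genes in each of the 15 libraries, as log2(CPM + 1) minus the gene's mean over all libraries (vertical axis). Points are medians over the genes, bars run from the lower to the upper quartile, and colors give the temperature. The medians form 3 separate levels, and the lowest is replicate 3 at 15 °C at -0.78. The order of the levels follows from the selection of the genes on these libraries.

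Because the genes were selected on all 15 libraries, the order of levels was also read in libraries that had not been used. The rule was applied to 12 libraries, leaving out one replicate number at each temperature, and the steps were then measured in the 3 libraries left out. Without replicate 1, 104 genes were chosen, and 75 of them (72.1%) were higher at both steps in the held-out libraries, against 12.9% of the genes within the limits. Without replicate 2, it was 84 of 95 (88.4%, background 21.5%). Without replicate 3, it was 80 of 92 (87.0%, background 37.6%). Without replicate 4, it was 74 of 93 (79.6%, background 28.2%), and without replicate 5, 68 of 77 (88.3%, background 32.9%). The held-out share was above the background share in each of the 5 cases. Between 9 and 29 genes per case did not keep the order in single libraries. These shares describe how even the order was between replicates, and are no independent test of the list. The list was chosen with earlier results of all these libraries known. The held-out libraries come from the same temperature groups, and whether a common box or day gave the order was not tested. Both steps of a case also share the same single library of the middle temperature. The median held-out lower step was 0.52 to 0.82 and the median upper step 0.43 to 0.67. Of the genes chosen in this way, 67 to 74 were among the 91. Since the 5 sets share libraries and genes, no p-value was computed over them.

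**Figure D3:**
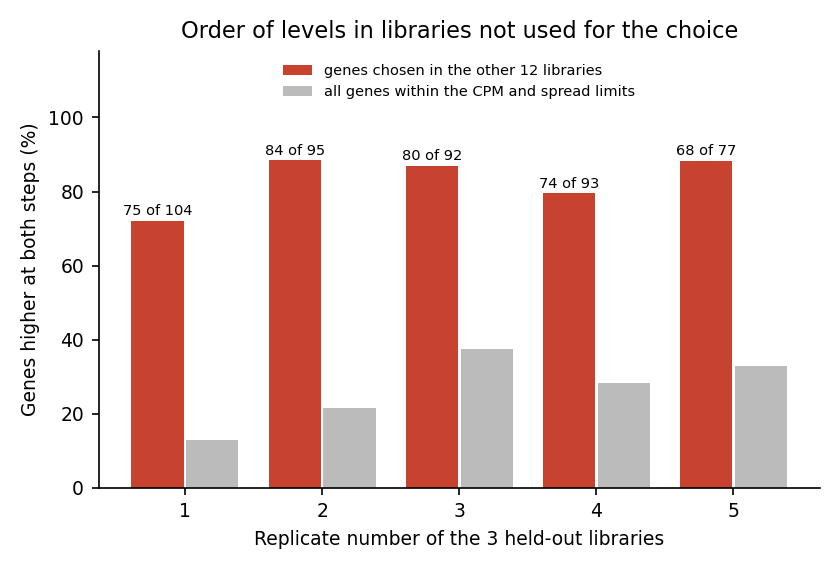
Percentage of genes with a higher level at both steps in 3 libraries that were not used to choose them (vertical axis), for each replicate number held out (horizontal axis). Red bars are genes chosen by the rule in the other 12 libraries, with their counts above, and grey bars are all genes within the limits on level and spread. The red bars lie between 72.1 and 88.4%, the grey bars between 12.9 and 37.6%. The held-out libraries come from the same temperature groups as the others and are no independent test.

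Each library had 2 columns of counts, and the steps were read in each column alone. The columns are parts of the libraries on which the genes were selected, so this shows only how evenly the steps were divided between them. Both steps reached the limit of 0.4 in 77 genes in the first column and in 70 in the second.

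The largest smaller step of the 91 genes was that of NEMVEDRAFT_v1g54537 (scaffold 151, 424665–428232, plus strand), a model with 4 exons. Its levels at 15 °C were 21.3, 22.0, 21.6, 14.6, and 17.9 CPM in replicates 1 to 5. At 20 °C they were 33.9, 43.9, 46.8, 49.7, and 53.1 CPM, and at 25 °C 136, 81.7, 88.6, 106, and 119 CPM. The 3 groups did not overlap, and the level rose by similar steps (1.18 ± 0.15 and 1.20 ± 0.17, SE, log2), to 5.46 times the 15 °C mean.

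NEMVEDRAFT_v1g239771 (scaffold 19, 1329578–1330923, minus strand), with a single exon, was the other gene with both steps of at least 1. Its levels were 3.84, 4.08, 2.27, 3.64, and 3.36 CPM at 15 °C, 10.3, 7.73, 10.6, 7.59, and 7.62 CPM at 20 °C, and 22.6, 22.1, 17.5, 20.7, and 25.5 CPM at 25 °C. The groups were again fully separated, and the ratio of the 25 to the 15 °C mean was 6.31.

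NEMVEDRAFT_v1g129741 (scaffold 269, 306527–308526, 5 exons) was the tightest of the steeper genes, with a spread of 0.13. It rose from 18.5 to 22.7 CPM at 15 °C to 36.9 to 48.3 CPM at 20 °C and 68.2 to 81.6 CPM at 25 °C. NEMVEDRAFT_v1g233837 (scaffold 1588, 5183–7987, 4 exons) had 4.14 to 5.39 CPM at 15 °C, 6.49 to 13.5 CPM at 20 °C, and 15.7 to 23.1 CPM at 25 °C. Its 20 °C libraries were the more scattered, but they overlapped neither neighbor. NEMVEDRAFT_v1g237612 (scaffold 453, 109654–112958, 5 exons) kept the order at a higher level, with means of 222 ± 18.7, 363 ± 46.9, and 549 ± 32.3 CPM (SD, n = 5 each).

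The other genes among the 10 with the largest smaller step overlapped at one or both steps. NEMVEDRAFT_v1g243468, a single-exon model, was separated at the lower step (15.6 to 21.4 against 30.5 to 55.6 CPM) but not at the upper one, where the 25 °C libraries had 53.8 to 74.3 CPM. NEMVEDRAFT_v1g221088 had the opposite form, with 12.2 to 22.0 CPM at 15 °C, 21.5 to 33.3 CPM at 20 °C, and 37.9 to 65.4 CPM at 25 °C. NEMVEDRAFT_v1g205856 and NEMVEDRAFT_v1g218163 were likewise separated only at the upper step, with means of 2.93, 5.39, and 9.89 CPM and of 7.40, 11.9, and 21.5 CPM. NEMVEDRAFT_v1g116955 (5.19, 9.26, and 15.7 CPM) and NEMVEDRAFT_v1g89574 (18.3, 29.8, and 52.1 CPM) overlapped at both.

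**Figure D4:**
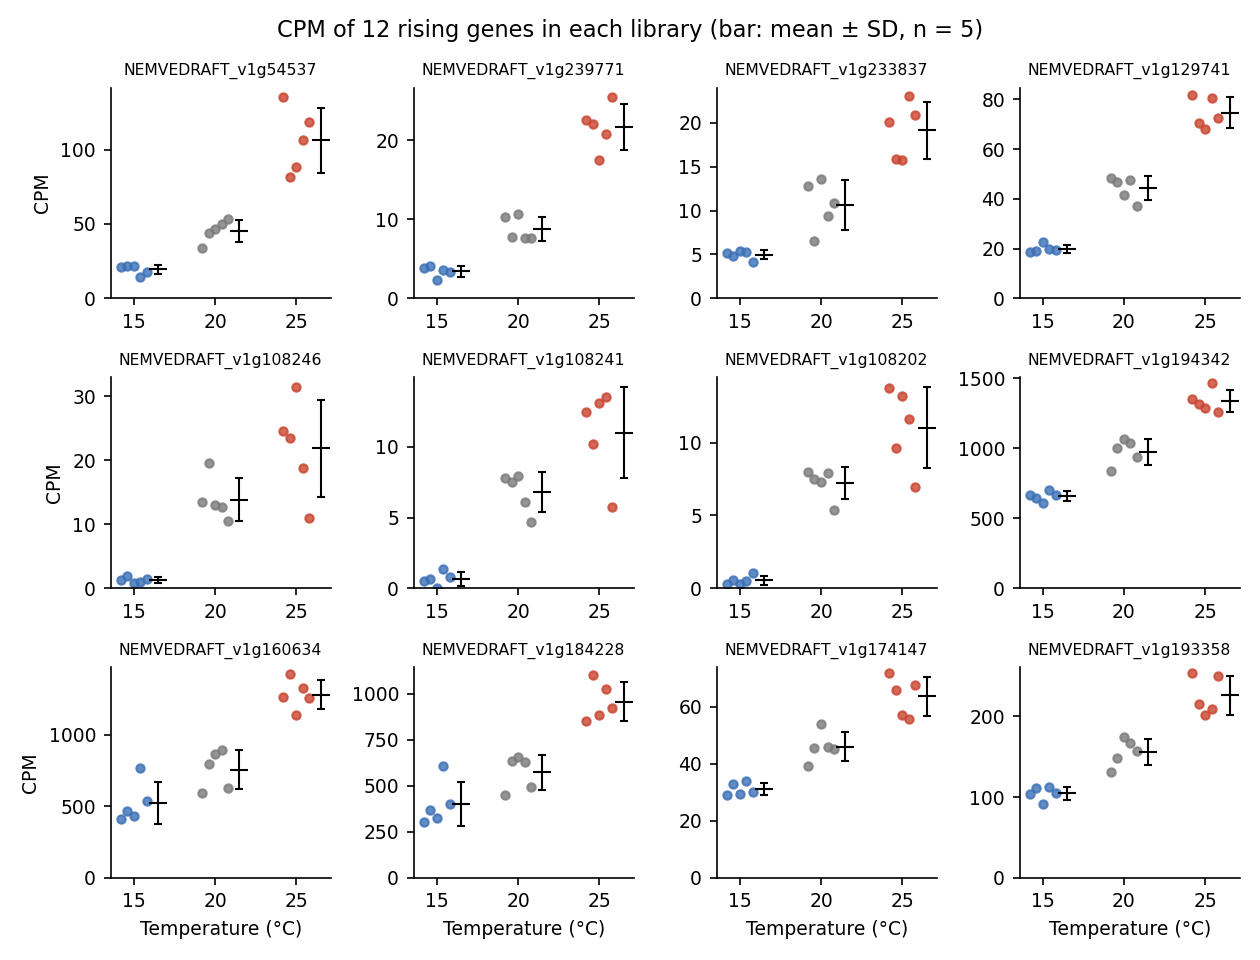
CPM of 12 rising genes in each library (points, replicates 1 to 5 from left to right) against temperature, with the mean ± SD of 5 libraries as a black bar; each vertical axis starts at 0. The upper row shows genes that climb at both steps, the 3 genes of scaffold 89 have larger lower than upper steps on the log2 scale, and NEMVEDRAFT_v1g160634 and NEMVEDRAFT_v1g184228 share a high replicate 4 at 15 °C.

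NEMVEDRAFT_v1g194342 had the highest mean CPM and the smallest spread of the 91, 0.10. Its levels were 663, 642, 609, 705, and 666 CPM at 15 °C, 834, 1001, 1062, 1038, and 938 CPM at 20 °C, and 1350, 1315, 1287, 1464, and 1262 CPM at 25 °C. The ratio of the outer means was 2.03, and no groups overlapped. Nearly as tight were TU29496 (86.8 ± 9.15, 119 ± 5.94, and 168 ± 11.1 CPM) and NEMVEDRAFT_v1g174826 (26.4 ± 2.92, 41.8 ± 3.14, and 58.6 ± 3.33 CPM), both fully separated.

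NEMVEDRAFT_v1g160634 had 410, 471, 430, 768, and 537 CPM at 15 °C, 594, 799, 863, 895, and 628 CPM at 20 °C, and 1267, 1423, 1141, 1325, and 1254 CPM at 25 °C. Replicate 4 at 15 °C lay within the 20 °C range, whereas the 25 °C libraries stood apart. NEMVEDRAFT_v1g184228 followed it closely, with 301, 368, 326, 605, and 400 CPM, then 448, 636, 659, 629, and 493 CPM, and then 850, 1104, 886, 1023, and 925 CPM. The models lie on different scaffolds (14 and 55), and both have a coding length of 441 bp. Their deviations from the temperature means correlated with r = 0.97 over the 15 libraries, the highest of all 4095 pairs of the 91 genes. Whether reads are shared between them was not tested, because no sequence was used here, so their separate levels are uncertain.

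Per kilobase of exon, these genes together with NEMVEDRAFT_v1g194342, NEMVEDRAFT_v1g209417, and NEMVEDRAFT_v1g210012 were the 5 most abundant of the 91, at 519 to 947 RPKM, with the sixth at 454 RPKM. Their deviations correlated in all 10 pairs (r = 0.63 to 0.97, mean 0.76, 15 libraries). In 4 of the 5 the upper step was the larger. For NEMVEDRAFT_v1g210012, the means were 290, 389, and 637 CPM, and only the 25 °C libraries stood apart. TU49969, also among the 5 with the highest CPM, had 262 ± 56.3, 386 ± 91.8, and 586 ± 59.6 CPM. CPM values of one library share its total, and replicate 4 at 15 °C, high in these genes, also had a low TMM scaling factor (0.874, the lowest of the 15). A factor under 1 gives higher levels on TMM scaling than on library totals. The part of this library in the correlation was not tested.

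Over all 91 genes, by contrast, there was little joint movement within a temperature. The mean pair correlation of deviations was 0.0315, below the 0.132 of the background genes, and 46.4% of the pairs were negative. On TMM-scaled levels the order reversed, to 0.0785 for the 91 genes and 0.0024 for the background. These are descriptions over 15 libraries that share their depth and scaling. In 9.57% of the pairs r was above 0.5.

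The largest rises were those of 3 neighboring genes on scaffold 89, all on the minus strand between 94699 and 100721. NEMVEDRAFT_v1g108246 (94699–95268, 1 exon) had 1.32, 1.87, 0.851, 0.936, and 1.42 CPM at 15 °C, 13.4, 19.6, 13.0, 12.6, and 10.5 CPM at 20 °C, and 24.5, 23.4, 31.4, 18.8, and 10.97 CPM at 25 °C. On the log2 scale its lower step (2.69 ± 0.18, SE) made up 82.4% of the rise, and the upper step was 0.58 ± 0.28, with overlapping groups. Replicate 5 at 25 °C was as low as the 20 °C libraries.

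NEMVEDRAFT_v1g108241 (95783–98853, 5 exons) had 0.530, 0.661, 0, 1.35, and 0.776 CPM, then 7.83, 7.502, 7.93, 6.11, and 4.65 CPM, and then 12.5, 10.2, 13.1, 13.5, and 5.73 CPM. NEMVEDRAFT_v1g108202 (100365–100721, 1 exon) had 0.265, 0.551, 0.284, 0.520, and 1.04 CPM, then 7.997, 7.502, 7.32, 7.94, and 5.38 CPM, and then 13.8, 9.64, 13.2, 11.6, and 6.99 CPM. Both repeated the form of the first gene. Their upper steps were 0.59 ± 0.24 and 0.53 ± 0.19 (SE, log2), again with overlapping groups. In edgeR's test none of the 3 genes was called at the upper step (adjusted p 0.1165, 0.1213, and 0.0665). Replicate 5 was the lowest library at 20 and at 25 °C in all 3 genes. Whether libraries of the same replicate number belong together across temperatures is not labelled. The ratios of the 25 to the 15 °C mean were 17.0, 16.6, and 20.8, and rest on few reads at 15 °C, 50, 29, and 21 counts over the 5 libraries. The deviations of neighbors correlated with r = 0.62 and 0.76.

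The rise did not extend to the next model on the side of lower coordinates, and the other side could not be read. NEMVEDRAFT_v1g108206, on the same strand, had steps of 0.14 and 0.07 at a mean of 7.27 CPM. NEMVEDRAFT_v1g108237, on the other side and on the opposite strand, had no counts in any library. Whether the 3 models are parts of one transcript cannot be read from the counts.

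Across the genome the 91 genes were spread over 79 scaffolds, and 70 were alone on theirs. There were 13 genes within 10 kb of another of the 91 and 15 within 50 kb, and 9 were next to another in order. No such share was computed for the background. The share within 10 kb was lower in the list chosen on TMM-scaled library sizes. Of the neighbors described here, NEMVEDRAFT_v1g118896, NEMVEDRAFT_v1g237274, TU29496, TU46045, and NEMVEDRAFT_v1g86655 did not meet the rule under TMM. Their pairs are thus pairs of the list on library totals only. The neighbors on scaffolds 89 and 289 met it under both. On scaffold 289, NEMVEDRAFT_v1g174147 (126212–129186) and NEMVEDRAFT_v1g193358 (136679–139597) lay 7492 bp apart on the plus strand, each with 2 exons and a coding length of 996 bp. They are described here because of their form, chosen after their values were seen. The first had 31.1 ± 2.16, 46.0 ± 5.16, and 63.6 ± 6.87 CPM, and the second 105 ± 8.29, 156 ± 16.6, and 226 ± 24.0 CPM (SD, n = 5 each). All groups were separated in both, and their deviations correlated with r = 0.86. Whether reads are shared between these genes was not tested, because no sequence was used, so their separate levels are uncertain. Each had a single-exon model of 345 bp just upstream on the minus strand, and those models had smaller steps, 0.08 and 0.27 for NEMVEDRAFT_v1g131070 and 0.13 and 0.26 for NEMVEDRAFT_v1g131054.

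On scaffold 230, NEMVEDRAFT_v1g215547 and TU29496 faced each other on opposite strands and overlapped by 91 bp at their ends, of which 74 bp were exonic in both. NEMVEDRAFT_v1g215547 had 153 ± 18.8, 232 ± 13.9, and 372 ± 45.2 CPM, and its steps (0.60 and 0.67) exceeded those of TU29496 (0.46 and 0.49). The default of the counting program named in the study's methods does not use strand, so reads in the shared bases cannot be assigned to either gene. On scaffold 359, TU46045 lay wholly within TU46054 on the same strand and shared no exon with it. TU46045 had 4.10 ± 1.29, 6.94 ± 0.849, and 9.53 ± 1.499 CPM, and TU46054 had 4.37 ± 1.27, 7.09 ± 0.549, and 11.1 ± 1.97 CPM.

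The remaining neighbors differed more. On scaffold 157, NEMVEDRAFT_v1g118896 (3.62, 5.45, and 7.497 CPM) and NEMVEDRAFT_v1g237274 (70.0, 93.2, and 129 CPM) had deviations with r = -0.08. The model before them, NEMVEDRAFT_v1g118898, had a step of 1.18 from 15 to 20 °C and of -0.09 after that. On scaffold 13, NEMVEDRAFT_v1g160432 lay between TU8986 and NEMVEDRAFT_v1g86655 and had steps of 0.37 and 0.64, the first of them below the limit. TU8986 had the widest spread of the 91, with 125 to 496 CPM at 25 °C.

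**Figure D5:**
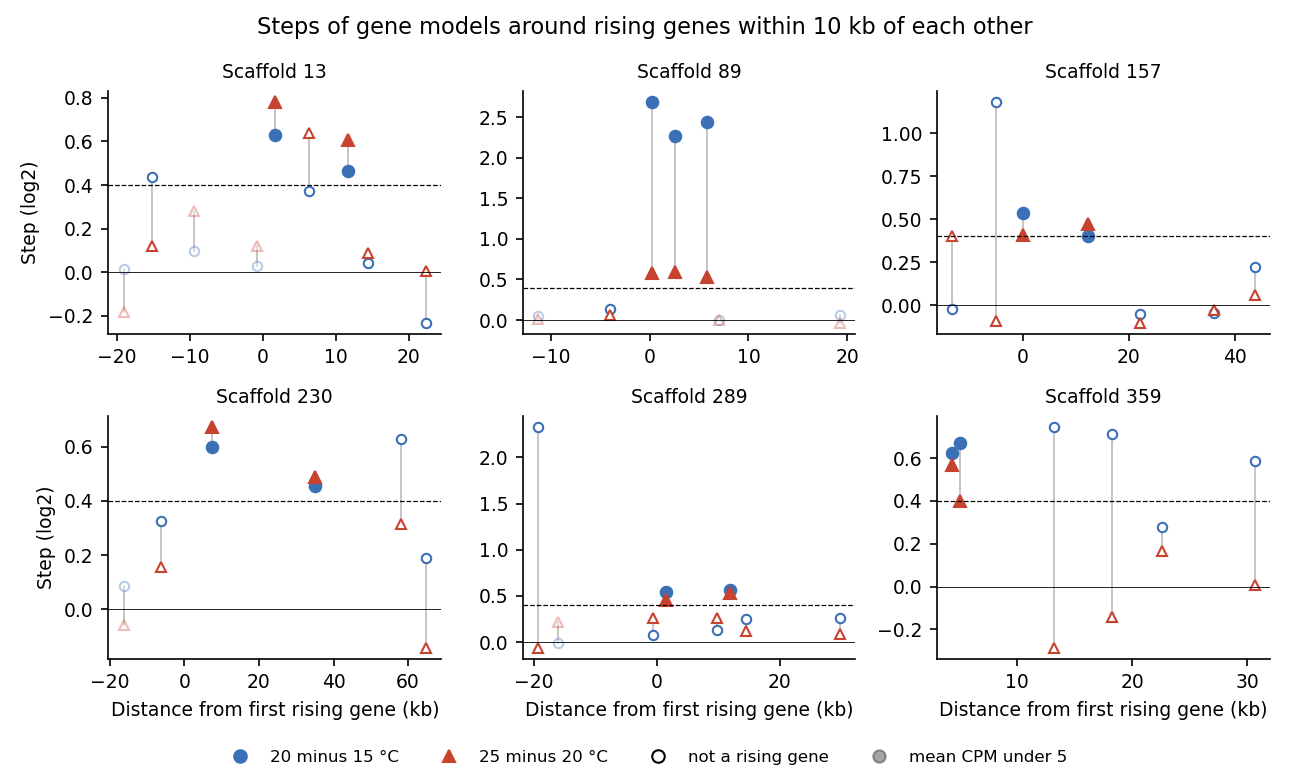
Lower step (blue circles) and upper step (red triangles) of every gene model within 20 kb of rising genes on 6 scaffolds, against the distance of the model's center from the start of the first rising gene (kb). Filled symbols are the rising genes, open symbols are other models, pale symbols have a mean under 5 CPM, and the dashed line is the limit of 0.4. On scaffold 89 the lower steps of the 3 genes are 2.26 to 2.69. The next model on the side of lower coordinates, at a mean of 7.27 CPM, has steps of 0.14 and 0.07. Models on the other side have means of 0 and 0.40 CPM, so their steps near 0 cannot be read.

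Models next to a rising gene were also compared with the background, since the rule did not use them. Of 160 such models, 85 met the limits on level and spread. Their median steps were 0.14 and 0.07, against 0.08 and 0.01 over the background, and 36 of them (42.4%) had both steps above 0, against 33.7%. The difference is small, and no test was made, since neighbors share libraries with the selected genes.

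Gene structure, which the rule did not use either, differed in its medians from the background. The 91 genes had a median of 3 exons against 7 over the 12280 genes, and 21 of them (23.1%) had a single exon against 9.45%. Their median length from start to end was 3326 bp against 6021 bp, and their median exon length 1245 bp against 1579.5 bp. Genes of at least 5 kb made up 41.8% of the 91 and 57.2% of the background. The 127 falling genes lay between in exon number, with a median of 5 exons and 15.7% single-exon models, and in length, at 4319 bp. Their median exon length (1227 bp) and their share of at least 5 kb (43.3%) were close to those of the rising genes. These differences from the background were thus not particular to rising genes.

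The models come from 2 sources, JGI predictions and transcripts assembled by TACO. TACO models were 22 of the 91 (24.2%), against 34.7% of the background and 25.2% of the falling genes. Among JGI models alone, single-exon models were 24.6% of 69 rising genes, 20.0% of 95 falling genes, and 12.3% of 8017 background genes. No annotated UTR was present in 50 of the 91 models (54.9%), in 54.3% of the falling genes, and in 38.5% of the background. Exon numbers of such models may be incomplete. No set test was run on these shares.

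Of the 91 genes, 14 (15.4%) had a neighbor starting within 1 kb on the opposite strand and facing away, against 21.6% of the background and 3.15% of the 127 falling genes. None of the 14 partners was among the 91. Of these partners, 10 met the limits on level and spread, and 7 of the 10 had both steps above 0, against 33.7% of the background. The partner of NEMVEDRAFT_v1g54537, NEMVEDRAFT_v1g170611, lay 790 bp away and had steps of 0.15 and 0.76. The partner of NEMVEDRAFT_v1g194342, NEMVEDRAFT_v1g175140, lay 281 bp away and had steps of -0.08 and 0.07. Another model overlapped 14 of the 91 genes. It lay on the same strand in 7 (7.69%, background 7.48%) and on the opposite strand in 7 (7.69%, background 10.6%). Exon bases were shared in 8, and no background share was computed for that.

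Genes just inside and just outside the limits had nearly the same values. Just inside the lower limit were NEMVEDRAFT_v1g205769 (0.401) and NEMVEDRAFT_v1g237274 (0.405), and just outside were NEMVEDRAFT_v1g240215 (0.399) and NEMVEDRAFT_v1g221823 (0.394). Just inside the upper limit were TU68189 (0.40) and TU46045 (0.401), and just outside were NEMVEDRAFT_v1g217964 (0.399) and NEMVEDRAFT_v1g116624 (0.398). NEMVEDRAFT_v1g217964, at a mean of 648 CPM, would have been among the more abundant genes of the list.

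The list also depended on the scaling. With TMM-scaled library sizes, 68 genes met the rule, 67 of them among the 91, and with DESeq2 size factors 69 genes, 68 of them among the 91. The median rise of the background genes from 15 to 25 °C was 0.10 with library totals and 0.0216 with TMM, and relative to that shift the median rise of the 91 genes was close under both (1.14 and 1.06 before subtraction).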

How the data were processed

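Counts were analyzed from 15 *Nematostella* RNA-seq libraries. The counts deposited by the authors are whole and unnormalized, in 2 columns per library whose meaning is not given; both were summed. The submitters' processing notes name Trimmomatic 0.38, HISAT2 2.1.0, StringTie 2.0, and featureCounts. Gene models and exon lengths were those deposited by the authors, on JGI scaffolds. The genes and lists were chosen with earlier results of these data known.

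CPM used library totals, RPKM the exon length, and steps the log2 of CPM + 1. The named genes were those with the largest smaller step, the highest CPM, the largest rise, the smallest spread, no overlap, values beside a limit, or a neighbor in the list. For the contrasts between temperatures, edgeR 4.0.16 (R 4.3.3) was fitted to all 15 libraries with TMM and filterByExpr, and its robust quasi-likelihood test was called at an adjusted p under 0.05. Alternatives used DESeq2 1.42.0, limma 3.58.1, other scalings, limits, and filters, thinning, a replicate block, and each library left out. Tables and figures used Python 3.11.15, numpy 2.4.6, pandas 2.3.3, scipy 1.17.1, and matplotlib 3.10.9. The procedures were tested on simulated data. The planned gene lists and cell type markers were not applied, because no gene name could be assigned.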

Additional observations from a re-analysis of the deposited data

Results flagged for a closer look

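Of 90 groups of 5 libraries examined, the 28 named genes, the summed level of the list, and its median deviation at each temperature, 2 held a library far from the others, and about 1 in 20 groups would by chance (4.5 of 90).

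NEMVEDRAFT_v1g108202 at 20 °C was lowest in replicate 5, at 5.38 CPM against 7.32 to 7.997 CPM in the other libraries. That gap made up 0.743 of the group's range, above Dixon's critical value of 0.71. The same replicate was also the lowest at 20 °C in the neighboring genes NEMVEDRAFT_v1g108246 and NEMVEDRAFT_v1g108241.

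TU46054 at 20 °C was highest in replicate 2, at 8.06 CPM against 6.71 to 6.92 CPM. Here the gap was 0.843 of the range.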

How the results depend on the processing

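The number of genes on the list followed the step limit, with 211 genes at a limit of 0.3 and 40 at 0.5, by construction. Leaving out 1 library gave 82 to 100 genes, and leaving out 1 replicate number at each temperature 77 to 104. The other rescalings, limits, single columns, and thinning to the lowest total gave 68 to 100 genes. Of the 91, edgeR called 41 to 66 at the lower step, 29 to 51 at the upper step, and 86 to 91 from 15 to 25 °C with 1 library left out. The calls over all genes moved with them. At the lower step they were 1509 of 17952 genes where 41 were called and 1939 of 17982 where 66 were. At the upper step they were 120 of 17943 and 277 of 17982. From 15 to 25 °C they were 2233 of 17944 without replicate 1 at 15 °C and 3065 of 17982 without replicate 4. The count of 29 was reached without replicate 5 at 20 °C; the cause was not tested. DESeq2 called 55, 53, and 91 (9.74, 1.78, and 14.7% of all genes tested were higher), and thinned libraries gave 37, 35, and 87 (8.01, 0.846, and 11.9%). Whether the lower or the upper step was the larger depended on the scaling, as given above, in an alternative added after seeing the data. The mean pair correlation within temperatures was 0.0214 to 0.0386 with 1 library left out, an alternative added after seeing the data, and 0.0785 under TMM, above the background there. Of 1456 recomputed steps of the 28 named genes, 1451 stayed within the spread between libraries and none changed sign. That outcome was largely set in advance. All alternatives reuse the libraries on which the genes were selected, and leaving out a library of the third temperature cannot change a step.

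The main fit did not take the replicate numbers as pairs, and the labels do not say whether they are. The deviations of libraries with the same number correlated with -0.09 to 0.28 over 15 pairs, 6 of them over 0.1. Of 15 libraries, 4 matched best with their own number. The mean was 0.09, against -0.02 over 60 pairs of other numbers, 13 of them over 0.1. These values do not settle whether the numbers are pairs. The library IDs run by replicate number, through the temperatures in turn. Whether libraries of one number shared a batch is not labelled and was not tested. A replicate block gave 63, 52, and 90 calls (10.4, 1.23, and 15.7% of all genes) in place of 54, 46, and 90. Depth limits the genes under 10 CPM most, 23 of the 91.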
